A study of Mus musculus with 9 samples.

Results

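The genes described here encode the proteasome, the protease that degrades ubiquitin-tagged proteins, in the right ventricle of mice. Members were the protein-coding rows of the gene table whose symbol starts with Psm, then a letter from a to g, then a digit, and 50 of 54532 genes met that rule. Of these, 48 were tested, having averaged 0.5 FPKM or more over the 9 libraries. FPKM is the number of fragments per kilobase of gene, scaled to the size of the library. The other 2 were Psma8, an alpha subunit of male germ cells, at 0.0685 to 0.644 FPKM, and Psmb11, a catalytic subunit of the thymus, which was listed at 0 in every library but Sham 3 (0.0161 FPKM). Psmc3ip met the name rule but is a cofactor of meiotic recombination and no proteasome subunit, so it is kept in the counts and described only once.

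All libraries were made from RNA of right ventricular myocardium of wild-type C57BL/6 mice, operated on at postnatal day 7, with 3 libraries in each of 3 groups. The Sham group had a control operation. The VO group had fistula surgery, which returns extra blood to the heart (volume overload). The CsA group had that surgery and injections of cyclosporin A, which blocks the phosphatase calcineurin through cyclophilin. The labels give neither the dose, nor the age at harvest, nor whether each library is a separate mouse, so p-values reflect no more than the spread among libraries, which may be technical.

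The proteasome is a hollow cylinder, the 20S core, made of stacked rings: outer rings of alpha subunits (Psma genes), which gate the entrance, and inner rings of beta subunits (Psmb genes), some of which cut peptides. The 19S regulatory particle caps the core. Its base holds a ring of ATPases (Psmc genes) that unfold substrates, and its other subunits (Psmd genes) bind ubiquitin chains and remove them. The Psmg genes, Pomp and a few Psmd genes encode assembly chaperones, and the Psme genes encode alternative caps. In heart muscle the system turns over sarcomere proteins and oxidised proteins, and immune signals swap 3 catalytic subunits for immunoproteasome forms.

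Members carried between 0.291% and 0.351% of all fragments in 8 libraries and 0.590% in VO 3. The libraries held 12046288 to 15986747 fragments. Mitochondrially encoded genes took 11.01% of fragments in VO 3 and 22.2% to 26.3% in the others, and 17003 genes were above 0 in VO 3 against 19619 to 20479. The summed level of 5 erythroid markers was 1848 FPKM in VO 3, where the other libraries had 572 to 962 FPKM, and that of 5 endothelial markers was 621 FPKM against 278 to 428. Of the non-mitochondrial fragments, members took 0.663% in VO 3 and 0.389% to 0.460% in the others. The atrial light chain gene Myl7 reached 235 FPKM in Sham 1, 270 FPKM in Sham 3 and 68.3 FPKM in CsA 3 and was at 0.959 to 13.2 FPKM in the remaining libraries, and Sham 2 differed from all others in carrying Y-linked Ddx3y (18.6 FPKM). Ventricular markers were high in all 9, with a summed level of 8102 to 13290 FPKM over 5 genes. The part of these differences in the values below was not tested, other than where a value without a library is given.

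A total of 4 member transcripts were higher in VO than in Sham and none was lower. In results from limma on log2(FPKM + 1), with Benjamini-Hochberg adjustment over 13477 genes, 4 of 48 members (8.33%) were called higher, against 2.04% of all genes called higher, and 0 were called lower, against 2.72% of all genes. They were Psma3 and Psma5 of the alpha ring, the ATPase Psmc6 and the deubiquitinating subunit Psmd14. The median difference over the 48 members was 0.37 on the log2 scale, against 0.00 over all genes, and 39 of 48 members (81.2%) were above 0. In 15 members all 3 VO libraries lay above all 3 Sham libraries, against 16.2% of all genes, and in 0 members all lay below, against 17%. Voom on the recovered fragments also called 4 members, all higher, where it called 2.95% of all genes higher and 4.07% lower. The count of called members was 0 after each library's trend on GC content was removed, as was the count of all called genes. The member count was also 0 when Sham 1, Sham 2, Sham 3, VO 1, CsA 1 or CsA 3 was left out. Without VO 3 it was 8, with a median of 0.11 over the members. Of those 8, 7 were higher (14.6% of members), against 7.14% of all genes, and 1 was lower (2.08%), against 8.23%.

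**Figure D1:**
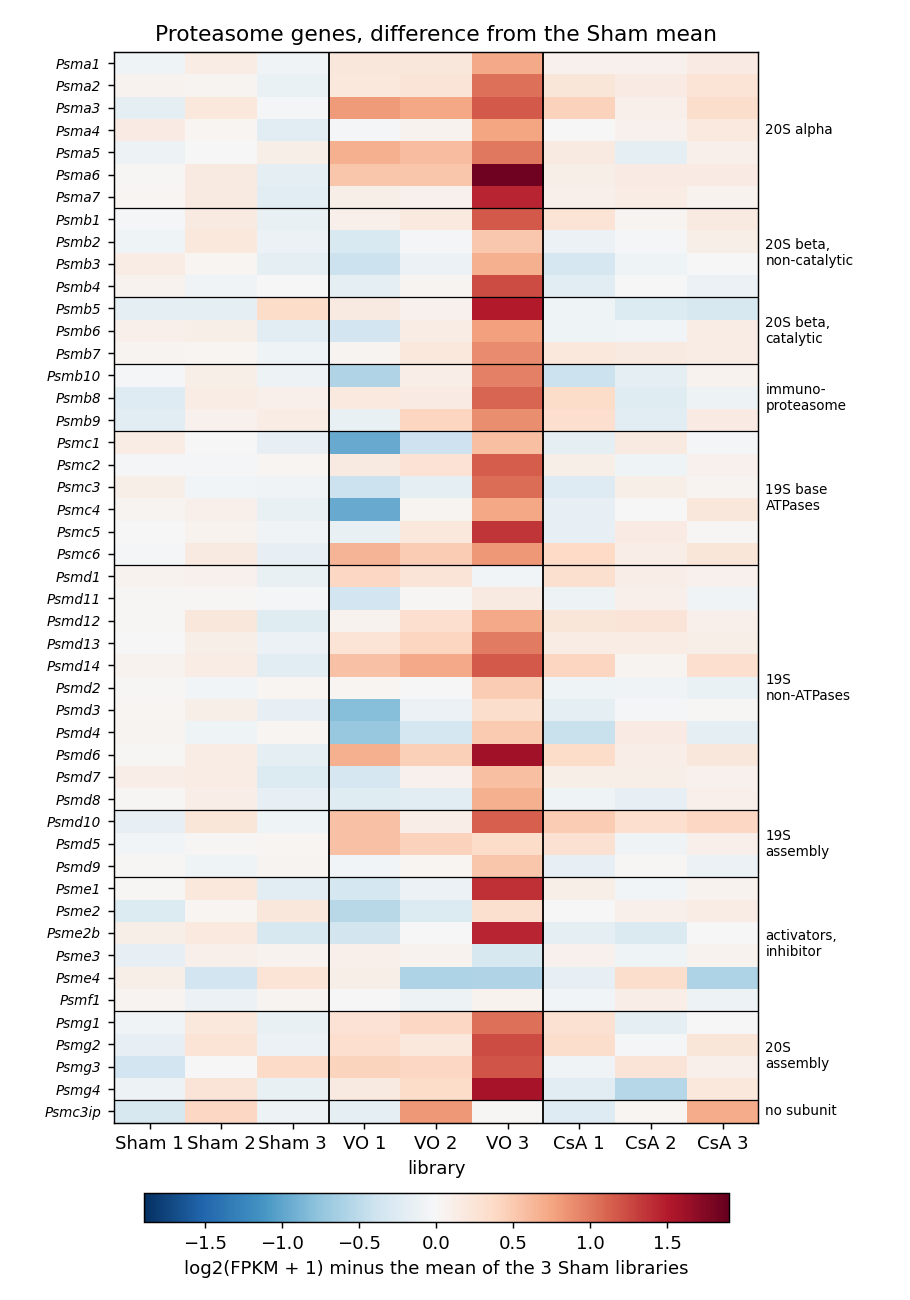
Each row is 1 of the 48 tested members, grouped by role, each column 1 library, and the colour gives log2(FPKM + 1) minus the mean of the 3 Sham libraries, red for higher and blue for lower. The column of VO 3 is red in nearly every row, while VO 1 and VO 2 show a mixture of red and blue rows.

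Psma3 (ENSMUSG00000060073, chromosome 12, 70974621 to 70996347 in GRCm38), a subunit of the alpha ring, was at 15.1, 19.9 and 16.7 FPKM in the Sham libraries, here and below in the order of their replicate numbers. The VO libraries gave 30.7, 29.0 and 39.6 FPKM and the CsA libraries 23.5, 18.4 and 21.8 FPKM. All VO libraries were above all others, and Sham and CsA overlapped. VO minus Sham was 0.90 ± 0.18 (log2, SE, n = 3 per group; limma adjusted p = 0.0391), and 0.77 ± 0.15 without VO 3. Over 27 settings of the analysis the difference stayed above 0, between 0.36 and 1.00, with adjusted p between 0.0260 and 0.976.

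Psma5 (ENSMUSG00000068749, chromosome 3, 108256926 to 108279974), also of the alpha ring, was at 29.2, 31.2 and 33.8 FPKM in the Sham libraries. In VO it was at 50.7, 47.7 and 63.9 FPKM, and in CsA at 35.6, 27.8 and 33.6 FPKM. Again every VO library was above every other library, by a wide gap from 35.6 to 47.7 FPKM. The difference of VO from Sham was 0.76 ± 0.17 on the log2 scale (limma adjusted p = 0.0408), and the adjusted p ranged from 0.0260 to 0.976 over the settings. Psma5 had a difference of 0.72 after the GC correction, under which no gene was called (limma adjusted p = 0.0913). Without VO 3 the difference was 0.63 (limma adjusted p = 0.0341).

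Psmc6 (ENSMUSG00000021832, chromosome 14, 45329788 to 45349705), an ATPase of the 19S base, was at 25.9, 29.9 and 23.5 FPKM in Sham and at 41.9, 37.4 and 47.2 FPKM in VO. The CsA libraries lay in between, at 34.6, 28.9 and 31.2 FPKM. All VO values were above all CsA values, while CsA 2 was below Sham 2. VO minus Sham was 0.65 ± 0.16 (log2, limma adjusted p = 0.0480, range over settings 0.0331 to 0.976). With the GC correction it was 0.24 ± 0.19 (adjusted p = 0.482), and with the GC correction and without VO 3 it was near 0 (0.013 ± 0.11, adjusted p = 0.945). Psmc6 had the lowest GC content of all tested members, 37.0%.

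Psmd14 (ENSMUSG00000026914, chromosome 2, 61711694 to 61800376) encodes the metalloprotease that cuts ubiquitin chains off substrates as they enter. Its level was 16.3, 17.1 and 13.4 FPKM in Sham, 23.3, 26.2 and 36.1 FPKM in VO, and 20.9, 16.2 and 19.7 FPKM in CsA. The VO libraries stood above all the others, and VO 3 was the highest. The difference of VO from Sham was 0.81 ± 0.19 (log2, limma adjusted p = 0.0456, range over settings 0.0265 to 0.976). Of the 4 called members, VO 3 exceeded the mean of the other 8 libraries by a ratio of 1.49 in Psmc6, 1.76 in Psma5, 1.81 in Psma3 and 1.89 in Psmd14.

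**Figure D2:**
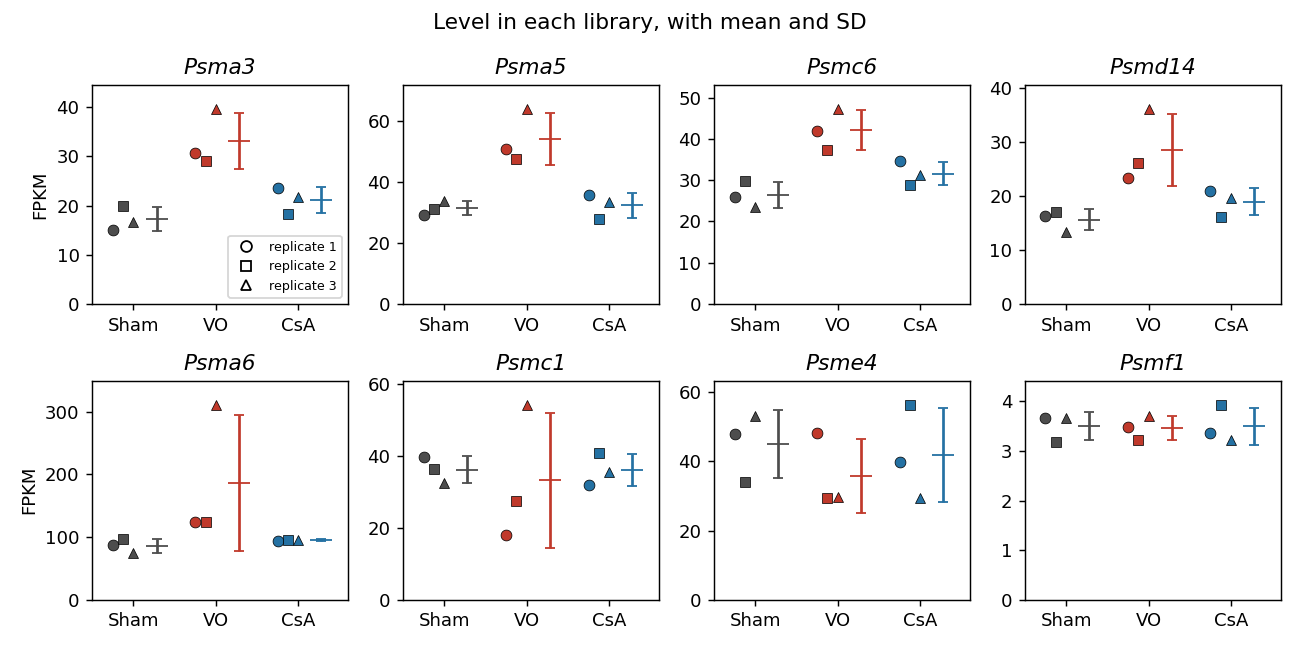
FPKM of 8 members in each library, with circles, squares and triangles for replicates 1, 2 and 3, and a bar for the mean ± SD of 3 libraries. In Psma3, Psma5, Psmc6 and Psmd14 every VO library is above every Sham library, in Psma6 and Psmc1 the VO 3 triangle stands apart, and Psmf1 stays between 3.18 and 3.93 FPKM throughout.

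The remaining 5 alpha ring genes did not pass the test in VO against Sham, though all 7 had a difference above 0, where 50.4% of all genes did, and 5 of 7 had all VO libraries above all Sham libraries, against 16.2% of all genes. Psma6 (chromosome 12, 55384222 to 55418454) had the highest level of any member, at 86.8, 97.0 and 74.9 FPKM in Sham, 124, 124 and 310 FPKM in VO, and 93.1, 95.7 and 95.9 FPKM in CsA. VO 1 and VO 2 were close together and above every Sham and CsA library, and VO 3 was far above both. Its difference of 0.96 ± 0.32 had an adjusted p of 0.0933 (limma), and without VO 3 it was 0.52 ± 0.13 with an adjusted p of 0.0408, within a range of 0.0335 to 0.976 over the settings. Psma7 was at 22.6 to 29.5 FPKM in 8 libraries and at 73.3 FPKM in VO 3. Psma1, Psma2 and Psma4 had VO 3 levels of 58.5, 35.3 and 48.1 FPKM, against at most 41.1, 20.1 and 32.2 FPKM in any other library. The ring as a whole had a median level, relative to the Sham mean of each gene, of 1.16 in VO 1, 1.19 in VO 2 and 2.13 in VO 3, and of 1.07 to 1.12 in the CsA libraries.

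The 4 beta ring genes without catalytic activity (Psmb1, Psmb2, Psmb3 and Psmb4) showed no call and no separation of groups. Their level relative to the Sham mean had a median of 0.848 in VO 1 and 1.95 in VO 3. The smallest p belonged to Psmb1, at 19.7, 22.6 and 18.0 FPKM in Sham and 21.3, 22.8 and 45.9 FPKM in VO, with a difference of 0.48 ± 0.26 (limma adjusted p = 0.252). Psmb4 was at 135 FPKM in VO 3 and at 48.2 to 59.3 FPKM in all other libraries, so its group difference of 0.38 came with a value of -0.06 when VO 3 was left out.

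The 3 constitutive catalytic genes were not called. Psmb5, the chymotrypsin-like subunit, was at 51.2, 51.0 and 74.3 FPKM in Sham, 65.1, 61.6 and 166 FPKM in VO, and 54.7, 48.4 and 46.9 FPKM in CsA. Sham 3 was above VO 1 and VO 2, and VO 3 was more than any other library. VO minus Sham was 0.59 ± 0.35 (limma adjusted p = 0.286). Psmb6, the caspase-like subunit, was at 35.2, 35.3 and 28.2 FPKM in Sham, 25.2, 36.3 and 56.9 FPKM in VO, and 30.8, 31.4 and 36.3 FPKM in CsA. The groups overlapped, and the difference was 0.19 ± 0.26 (limma adjusted p = 0.667). Psmb7, the trypsin-like subunit, was at 18.2, 18.0 and 16.4 FPKM in Sham, at 18.2, 20.4 and 33.5 FPKM in VO and at 20.3, 19.9 and 19.3 FPKM in CsA. Its difference of 0.39 ± 0.21 did not pass (limma adjusted p = 0.244), and its lowest VO library was barely above its highest Sham library.

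The immunoproteasome genes, which immune signals switch on in most tissues, were low for 2 of 3. Psmb8, which takes the place of Psmb5, was at 0.877, 1.45 and 1.38 FPKM in Sham, 1.54, 1.47 and 3.77 FPKM in VO, and 1.84, 0.886 and 1.09 FPKM in CsA. Psmb9, which replaces Psmb6, was at 0.806, 1.22 and 1.33 FPKM in Sham, 0.909, 1.80 and 2.90 FPKM in VO, and 1.63, 0.840 and 1.35 FPKM in CsA. Both had their highest level in VO 3, and neither passed the test in VO against Sham (0.48 ± 0.27, adjusted p = 0.256, and 0.39 ± 0.25, adjusted p = 0.337, by limma). Psmb10, which replaces Psmb7, was higher in every library, at 10.3, 11.3 and 9.68 FPKM in Sham, 6.70, 11.5 and 21.1 FPKM in VO, and 7.62, 9.06 and 10.9 FPKM in CsA. Its groups overlapped, with a difference of 0.17 ± 0.32 (limma adjusted p = 0.759). Psmb9 and the peptide transporter gene Tap1 lie on opposite strands, share 212 exon bases, and have start sites 211 bases apart, and it is not given whether counting used strand, so the low Psmb9 level is uncertain.

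Set against its constitutive counterpart per kilobase, the immunoproteasome form was a small share in 2 pairs. Psmb8 was 1.71% to 3.36% of Psmb5 over the 9 libraries and Psmb9 was 2.29% to 5.28% of Psmb6. Psmb10 was 36.8% to 63.0% of Psmb7. The summed level of the 3 forms was 11.4%, 13.4% and 10.4% of the summed constitutive level in the Sham libraries, 8.43%, 12.5% and 10.8% in the VO libraries, and 10.5%, 10.8% and 13.1% in the CsA libraries. The 3 groups overlapped in this share, and VO 3, which had the highest level of all 6 genes, was in the middle of the range. The summed level of 10 immune cell markers was 40.1 FPKM in VO 3 against 22.5 to 32.8 FPKM in the rest, and its part in these values was not tested.

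**Figure D3:**
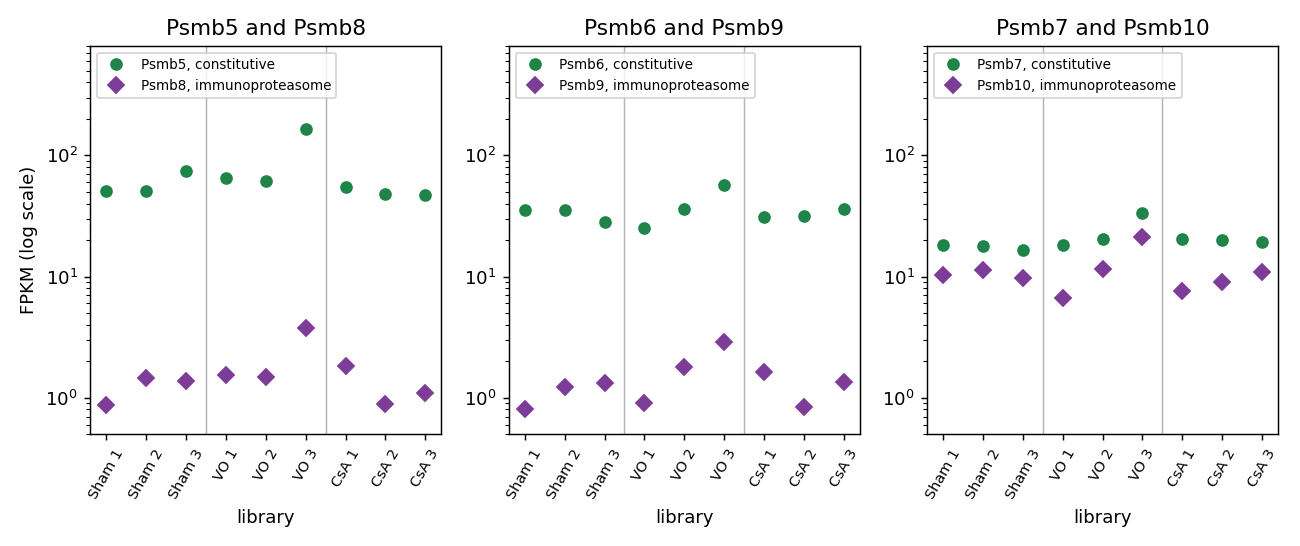
FPKM on a log scale for each constitutive catalytic gene (circles) and the immunoproteasome gene that replaces it (diamonds), by library. Both genes of each pair are highest in VO 3, and the gap between circles and diamonds is much narrower for Psmb7 and Psmb10 than for the other pairs.

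The 6 ATPase genes of the 19S base did not move together. Psmc6 was called higher in VO (above), and Psmc2 lay without overlap above Sham, with 14.7, 14.7 and 15.3 FPKM in Sham and 16.9, 18.2 and 34.2 FPKM in VO, at an adjusted p of 0.167 (limma). Psmc1 (chromosome 12, 100110154 to 100123405) pointed the other way in VO 1 and VO 2: it was at 39.8, 36.4 and 32.3 FPKM in Sham, 18.1, 27.3 and 54.1 FPKM in VO, and 32.0, 40.9 and 35.5 FPKM in CsA. VO 1 and VO 2 were its lowest libraries of all and VO 3 its highest. The difference of all 3 VO libraries from Sham was -0.26 ± 0.32 (limma adjusted p = 0.633), and without VO 3 it was -0.67 ± 0.19 (adjusted p = 0.0489; range over settings 0.0489 to 0.983). Psmc3 also had VO 1 and VO 2 below and VO 3 above every Sham library, at 34.3, 40.7 and 97.5 FPKM against 44.1 to 49.7 FPKM. Psmc4 was at 13.3 FPKM in VO 1 and 24.0 to 45.2 FPKM in the other 8 libraries, and Psmc5 was at 114 FPKM in VO 3, against 39.4 to 50.7 FPKM.

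Among the 11 non-ATPase genes of the 19S particle, Psmd14 was called, and it, Psmd6 and Psmd13 had all VO libraries above all Sham libraries, against 16.2% of all genes. Psmd6, a lid subunit, was at 22.8, 24.9 and 19.7 FPKM in Sham, 36.2, 30.8 and 69.4 FPKM in VO, and 28.9, 24.6 and 26.0 FPKM in CsA. All of its VO libraries were above all others. Its difference from Sham was 0.90 ± 0.27 (limma adjusted p = 0.0691), and 0.56 ± 0.14 without VO 3 (adjusted p = 0.0408, range over settings 0.0408 to 0.976). Psmd13, another lid subunit, was at 18.5, 19.99 and 16.9 FPKM in Sham and 22.3, 24.7 and 37.5 FPKM in VO, with an adjusted p of 0.0997. In the ubiquitin receptor gene Psmd4 and the lid gene Psmd8, VO 1 and VO 2 were below every Sham library and VO 3 above. Psmd4 was at 19.9, 18.0 and 19.6 FPKM in Sham and at 11.2, 15.0 and 27.4 FPKM in VO.

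The scaffold gene Psmd1 went against this pattern: it was at 20.7 and 18.6 FPKM in VO 1 and VO 2, above the 14.0 to 16.5 FPKM of Sham, and at 14.9 FPKM in VO 3. Its partner scaffold Psmd2 was at 48.8, 46.1 and 49.0 FPKM in Sham, 49.4, 48.3 and 67.2 FPKM in VO, and 45.3, 45.5 and 44.1 FPKM in CsA. Every CsA value of Psmd2 was below every Sham value, by a small margin. Psmd11 had the lowest level of these 11 genes, at 6.14 to 9.33 FPKM. Psmd3, Psmd7 and Psmd12 gave VO minus Sham differences of -0.20, 0.11 and 0.37, none of which passed.

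The assembly chaperones had no call in VO against Sham. For the 19S base, Psmd5 was at 3.52, 3.78 and 3.80 FPKM in Sham, 5.94, 5.39 and 4.97 FPKM in VO and 4.75, 3.48 and 4.05 FPKM in CsA. It was unlike the other members with separate groups in that VO 3 was the lowest of its 3 VO libraries. VO minus Sham was 0.45 ± 0.14 (limma adjusted p = 0.0715), and 0.50 ± 0.13 without VO 3 (adjusted p = 0.0421, range over settings 0.0421 to 0.976). Psmd10, also known as the oncoprotein gankyrin, was at 4.11 to 5.68 FPKM in Sham, 5.23 to 11.5 FPKM in VO and 6.11 to 6.91 FPKM in CsA. Psmd9 was at 1.58 to 1.98 FPKM except in VO 3 (3.14 FPKM).

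For the 20S core, the chaperone genes Psmg1 to Psmg4 had VO minus Sham differences of 0.58 to 0.70, none called, with 0.116 as the smallest adjusted p. Psmg3 was at 0.332, 0.721 and 1.2 FPKM in Sham, 1.3, 1.26 and 2.91 FPKM in VO, and 0.638, 1.03 and 0.842 FPKM in CsA. Psmg4, the shortest member at 555 bases, was at 28.5 FPKM in VO 3 and at 5.83 to 11.7 FPKM in the other libraries. Pomp, the maturation factor that works with them but does not carry a Psm symbol, was at 9.33, 9.94 and 9.57 FPKM in Sham, 13.0, 11.1 and 30.8 FPKM in VO, and 10.6, 10.2 and 9.64 FPKM in CsA. All VO libraries of Pomp were above all others, and its difference of 0.72 ± 0.30 had an adjusted p of 0.150 (limma).

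Of the 6 genes of the alternative caps and the inhibitor, 3 had their highest level in VO 3 (Psme1, Psme2 and Psme2b). Psme1, of the interferon-inducible cap, was at 31.7, 36.1 and 26.7 FPKM in Sham, 24.5, 28.9 and 83.0 FPKM in VO, and 33.7, 30.1 and 32.9 FPKM in CsA. Its partner Psme2 was at 4.08, 5.30 and 6.12 FPKM in Sham, 3.24, 4.09 and 6.51 FPKM in VO, and 5.09, 5.50 and 5.74 FPKM in CsA. The groups of both overlapped, with VO minus Sham at 0.31 ± 0.38 and -0.16 ± 0.21 (limma adjusted p = 0.619 and 0.643). Psme2b, which is 99.4% identical to Psme2 over 794 bases, was at 40.8 FPKM in VO 3 and at 11.02 to 16.5 FPKM in the other libraries, and the split of reads between these 2 genes is uncertain.

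Psme4, which encodes the large cap PA200, had the highest Sham mean of the caps, 45.1 FPKM, and scattered widely within each group. It was at 47.9, 34.2 and 53.2 FPKM in Sham, 48.2, 29.4 and 29.7 FPKM in VO, and 39.8, 56.3 and 29.3 FPKM in CsA. No group stood apart, and VO minus Sham was -0.34 ± 0.29 (limma adjusted p = 0.454). VO 3 was among the low libraries of Psme4, at a ratio of 0.701 to the mean of the other 8. Psme3, of the nuclear cap, was lowest in VO 3 (15.7 FPKM), with 17.6 to 21.04 FPKM in the rest. Psmf1, an inhibitor of the core in vitro, was the steadiest member: 3.67, 3.18 and 3.67 FPKM in Sham, 3.48, 3.23 and 3.71 FPKM in VO, and 3.36, 3.93 and 3.22 FPKM in CsA, with VO minus Sham at -0.01 ± 0.13 (limma adjusted p = 0.965). Psmc3ip, the gene outside the proteasome, was at 0.490 to 2.26 FPKM with no order by group.

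**Figure D4:**
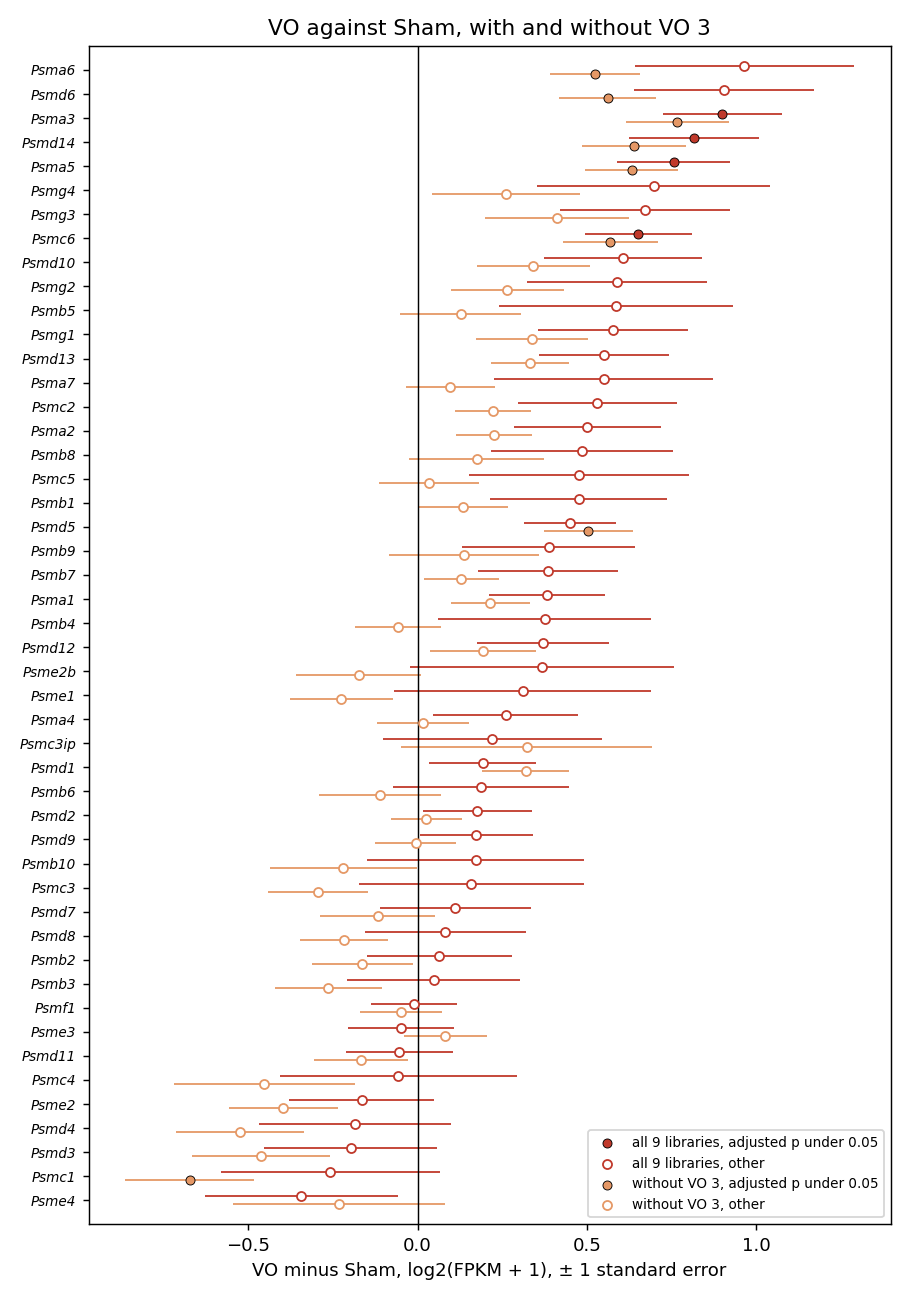
VO minus Sham for each tested member on the log2(FPKM + 1) scale, with bars of 1 standard error, from the fit of all 9 libraries (red) and from the fit without VO 3 (orange), and filled points for adjusted p under 0.05. In all, 4 red and 8 orange points are filled, the orange points lie to the left of the red ones for most members, and Psmc1 is the filled point below 0.

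VO 3 was the highest of the 9 libraries in 42 of 48 members (87.5%), against 27.3% of all genes tested. The exceptions were Psmd1, Psmd5, Psme3, Psme4, Psmf1 and Psmc3ip. Relative to the mean of the other 8 libraries, the VO 3 level ran from 0.701 in Psme4 to 3.17 in Psmg3, with a median of 1.78. By role, the median of this ratio was 2.65 in the 4 chaperones of the core, 2.35 in the immunoproteasome genes and 1.98 in the ATPases. It was 1.94 in the non-catalytic beta genes, 1.81 in the alpha ring and 1.78 in the constitutive catalytic genes. In the chaperones of the 19S base it was 1.74, in the non-ATPases 1.53 and in the caps and their inhibitor 1.2. The core chaperones include Psmg3, a member with few fragments, and Psmg4, the shortest member. These ratios are descriptions, since the library is 1 sample.

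In VO 1 and VO 2 the members split. Both libraries were above all 3 Sham libraries in 16 members (33.3%), against 27.6% of all genes. Both were below in 4 (Psmc1, Psmc3, Psmd4 and Psmd8), against 27.4%. The fit without VO 3 called 7 members higher (14.6%), namely Psma3, Psma5, Psma6, Psmc6, Psmd6, Psmd14 and Psmd5, where 7.14% of all genes were called higher. It called Psmc1 lower (2.08% of members), where 8.23% of all genes were called lower. In that fit 60.4% of members were above 0. Leaving out VO 3 thus raised the number of called members from 4 to 8. It lowered the median difference over all 48 tested members from 0.37 to 0.11. Among all genes, the share called higher rose from 2.04% to 7.14% and the share called lower from 2.72% to 8.23%.

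Gene length moved with the deviation of VO 3, and GC content with the difference of VO 1 and VO 2 from Sham. Across the 48 members, the VO 3 deviation from the median of the other 8 libraries fell with the gene length in the table, with a Spearman rho of -0.49 (-0.35 over all 13477 genes). The difference of VO 1 and VO 2 from Sham had a rho of -0.46 with GC content in the members and of -0.64 over all genes. The other pairings were weaker: rho was 0.25 in the members and -0.03 over all genes for the VO 3 deviation with GC content, and 0.04 and 0.15 for the difference of VO 1 and VO 2 with gene length. Genes share libraries and are not independent replicates, so these correlations describe the libraries and carry no test. The low-GC members include 3 of the 4 called ones (Psmc6 at 37.0%, Psma3 at 40.8% and Psmd14 at 43.2%), while Psma5 is at 49.2%, near the members' median of 49.7%. With the GC correction Psma3, Psma5, Psmc6 and Psmd14 had differences of 0.58, 0.72, 0.24 and 0.57, and no member and no gene was called. A length correction in place of it gave 7 called members (14.6%), all higher, against 4.58% of all genes called higher and 5.71% called lower.

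**Figure D5:**
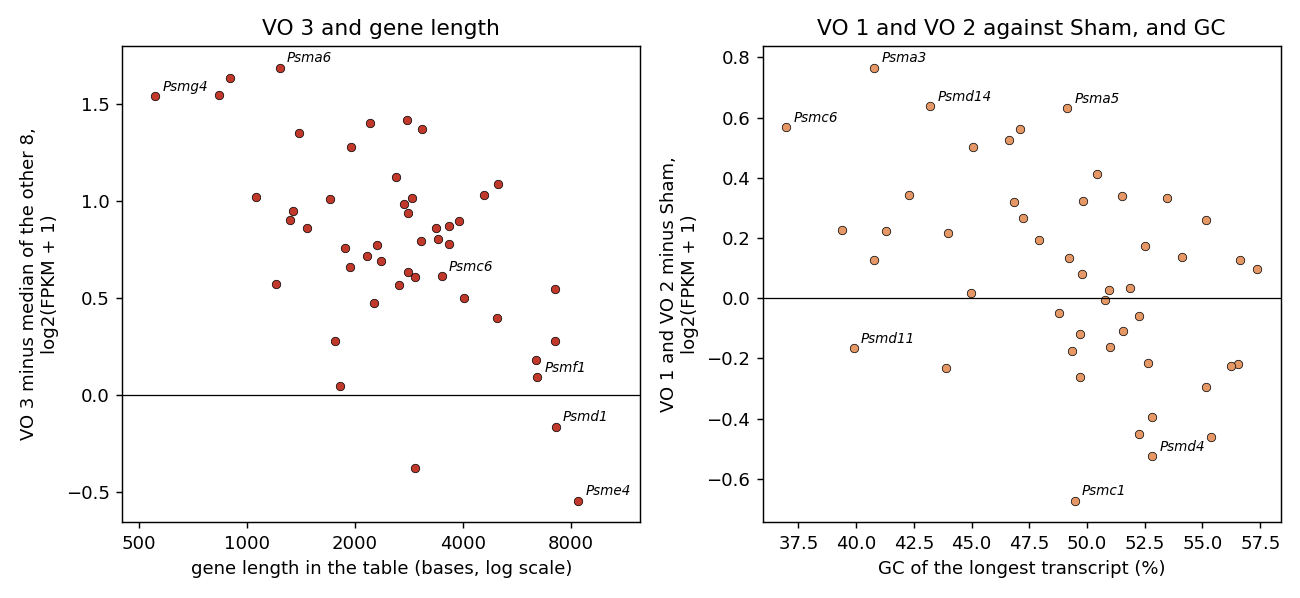
Left, the VO 3 level minus the median of the other 8 libraries against gene length on a log axis, and right, the difference of VO 1 and VO 2 from Sham against GC content, with each point 1 of the 48 tested members. Psmg4, the shortest member, lies near the top on the left and Psme4, the longest, at the bottom, and on the right Psmc6, Psma3 and Psmd14 lie at the low end of GC and the high end of the difference.

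Near-identical copies touch the call of Psma3. Outside the set, 13 members shared at least 200 bases at 95% identity or more with another transcript of GENCODE M21, and in 8 of them with a pseudogene. The processed pseudogene Gm13835 (chromosome 6, 31141979 to 31142663, 685 bases) matched 662 of the 765 coding bases of Psma3 at 100% identity. A stretch of that match, bases 104 to 223 of the Psma3 coding sequence, is shown because reads inside it cannot be assigned to either gene; it is written in lower case with no capitals because no base differs.
Psma3 and Gm13835: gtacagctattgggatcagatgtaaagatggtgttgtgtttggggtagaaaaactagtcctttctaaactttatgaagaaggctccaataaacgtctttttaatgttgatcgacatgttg
Gm13835 was listed at 49.7, 64.5 and 63.0 FPKM in Sham, 109, 87.8 and 182 FPKM in VO, and 78.6, 64.0 and 66.8 FPKM in CsA. Every VO library was above every other library, as in Psma3 itself, and VO minus Sham was 1.02 ± 0.26 (limma adjusted p = 0.0511). No source used here says how the counting dealt with reads that fit both places, so the levels of both are uncertain. Psma5 had 2 pseudogene copies, Gm12989 and Gm8394, at 2.64 to 11.2 and 3.46 to 11.5 FPKM, both highest in VO 3. For Psmc6, Psmd14, Psma6 and Psmd6 no such copy was found. Among all members, 15 shared exon bases with another annotated gene. How reads in the shared bases were counted is not given, so these levels are uncertain to that extent. The overlap ran from 14 bases, in Psme1 with Emc9, to 1849 bases, in Psmd9 with Gm26745, which was at 0 FPKM. Some of these pairs are also counted among the 13 above, such as Psmd13 with Sirt3 (342 bases on the opposite strand). Genes at the same place in the genome were not removed from the copy search.

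The levels of the members were uneven although the core and the cap each hold their subunits in fixed numbers. Over the 31 core and regulatory subunits, the Sham mean ran from 8.18 ± 0.20 FPKM (SD, n = 3) in Psmd11 to 86.2 ± 11 FPKM in Psma6. It fell with the gene length in the table, at a Spearman rho of -0.74 over 31 genes. FPKM is itself divided by a gene length, so level and length are not independent and this rho carries no test. The length in the table had a median of 2768 bases over the members, against 1895 bases for the longest transcript, and levels per kilobase depend on which of them is used.

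The treated overload group gave no called member against the untreated one. In CsA minus VO, 0 of 48 members were called higher or lower by limma, as were 0% of all genes higher and 0% lower. Unadjusted p was under 0.05 in 11 members and 2219 genes, and voom called 0. The median difference was -0.27 over the members and 0.00 over all genes, and 9 of 48 were above 0. In 13 members all CsA libraries lay below all VO libraries, against 10.3% of all genes, and in 0 they lay above, against 10.9%. Without VO 3 the median was -0.02 and 45.8% of members were above 0.

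This comparison shares its VO libraries with the one against Sham, so opposite signs in the 2 are not independent. The member with the smallest p was Psma5, with a CsA minus VO difference of -0.72 ± 0.17 (limma adjusted p = 0.204) beside 0.76 ± 0.17 for VO minus Sham. Psma3 gave -0.61 ± 0.18 (adjusted p = 0.214) and Psmd14 -0.55 ± 0.19 (adjusted p = 0.237). Among the ATPases the smallest p was that of Psmc6, at -0.40 ± 0.16 (adjusted p = 0.262). Of the catalytic genes Psmb5 gave -0.80 ± 0.35 (adjusted p = 0.295) and, without VO 3, -0.34. Psmb8 gave -0.47 ± 0.27 (adjusted p = 0.396), and among the core chaperones Psmg4 gave -0.88 ± 0.34 (adjusted p = 0.262). Psmd5 gave -0.34 ± 0.14 (adjusted p = 0.263), Psmb4 -0.49 ± 0.31 (adjusted p = 0.448) and Psme2b -0.52 ± 0.39 (adjusted p = 0.517). None of these passed, and for Psma5 the lowest VO library (47.7 FPKM) still stood well above the highest CsA library (35.6 FPKM).

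CsA and Sham differed little in the members. The median of CsA minus Sham was 0.04, 31 of 48 members were above 0, and limma called 0 members and 0% of all genes in either direction. Unadjusted p was under 0.05 in 0 members and 200 genes, and voom called 0. All CsA libraries were above all Sham libraries in 4 members (Psma2, Psmb7, Psmd10 and Psmd13), against 4.8% of all genes, and below in 1 (Psmd2), against 4.94%. The largest difference was in Psmd10, at 0.40 ± 0.23 with 4.11, 5.68 and 4.36 FPKM in Sham and 6.91, 6.11 and 6.43 FPKM in CsA (limma adjusted p = 1.0). A p that misses the threshold does not show that the groups were alike, and with 3 libraries a group the standard errors of the members in this comparison were 0.13 to 0.39. As these are bulk samples, fewer cells of a type and less RNA per cell cannot be told apart.

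Genes that act with the proteasome were read from the same fit. Of 11 partners without a Psm symbol, none was called in VO against Sham. The smallest p-values were those of Txnl1, a thioredoxin-like protein bound to the cap, at 24.0, 25.7 and 21.7 FPKM in Sham and 39.9, 31.4 and 58.2 FPKM in VO (0.79 ± 0.21, limma adjusted p = 0.0575). They were followed by Usp14, a deubiquitinase of the cap, at 8.55, 12.7 and 9.44 FPKM in Sham and 21.2, 17.5 and 15.1 FPKM in VO (0.76 ± 0.21, adjusted p = 0.0602). The VO libraries of both were above all Sham libraries. The ubiquitin receptor Adrm1 was at 9.67, 9.13 and 10.6 FPKM in Sham and 3.97, 5.67 and 9.21 FPKM in VO (-0.63 ± 0.24, adjusted p = 0.119).

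Of 11 regulators of proteasome gene transcription, 0 were called higher and 2 lower in VO, where 2.04% of all genes were called higher and 2.72% lower. Nfe2l1 encodes a transcription factor that drives proteasome genes when proteasome activity is short. It was at 70.1, 58.3 and 71.9 FPKM in Sham, 38.2, 37.3 and 38.9 FPKM in VO, and 50.7, 66.8 and 46.3 FPKM in CsA. The VO libraries, VO 3 included, lay close together and below all others. VO minus Sham was -0.79 ± 0.17 (limma adjusted p = 0.0408). With the GC correction, under which no gene was called, it was -0.59. Keap1, the adaptor that marks the related factor Nfe2l2 for degradation, was at 9.71, 8.07 and 9.67 FPKM in Sham and 5.54, 6.16 and 5.24 FPKM in VO (-0.61 ± 0.15, adjusted p = 0.0466; -0.27 with the GC correction). Nfyb, a subunit of the factor that binds CCAAT boxes, was at 3.98, 4.55 and 3.24 FPKM in Sham and 8.16, 6.73 and 6.73 FPKM in VO (0.74 ± 0.20, adjusted p = 0.0551).

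In the ubiquitin supply list 1 of 14 genes was called, in the direction in which 2.72% of all genes were called (lower in VO). Ubb, a polyubiquitin gene, was at 182, 121 and 118 FPKM in Sham, 32.7, 59.3 and 63.5 FPKM in VO, and 71.7, 141 and 119 FPKM in CsA. Its VO libraries were below all others, and the difference from Sham was -1.45 ± 0.33 (limma adjusted p = 0.0425). Rps27a, which encodes ubiquitin fused to a ribosomal protein, was at 29.1, 30.7 and 21.2 FPKM in Sham and 62.9, 46.2 and 161 FPKM in VO (1.51 ± 0.39, adjusted p = 0.0539). The levels of Ubb and Rps27a are uncertain, since other ubiquitin genes and pseudogenes hold nearly the same sequence. Of the 10 muscle ubiquitin ligases none was called. Fbxo32 (atrogin-1), a ligase of muscle wasting, was at 18.8, 16.1 and 20.2 FPKM in Sham and 11.05, 6.36 and 10.04 FPKM in VO (-0.96 ± 0.25, adjusted p = 0.0535).

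Immunoproteasome genes belong to the interferon response, so that list and the peptide loading genes were read beside them. None of 19 tested interferon response genes was called in VO against Sham. In this list 16 were above 0, against 50.4% of all genes, and the median was 0.55, against 0.00 over all genes. Values of this list without VO 3 are not given here. Ifit2 was at 3.40, 4.45 and 4.03 FPKM in Sham and 7.05, 9.40 and 6.65 FPKM in VO (0.80 ± 0.25, limma adjusted p = 0.0748). None of 9 peptide loading genes was called. The 3 smallest p-values of that list were those of Tapbp, B2m and H2-K1. B2m was at 137, 326 and 188 FPKM in Sham and 407, 343 and 599 FPKM in VO. Tap1, which shares exon bases with Psmb9 and is not among these 3, was at 1.79, 2.39 and 2.38 FPKM in Sham. In VO it was at 1.28, 2.82 and 2.89 FPKM.

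Promoters of the 4 called members are shown, since they are the genes whose VO and Sham libraries differed past the test. RefSeq gave a promoter of 300 bases, 250 before to 50 after the gene start in GRCm38.p6, for 42 of the 50 members. Both strands were searched for TGACNNNGC, the core of the antioxidant response element bound by Nfe2l1 and Nfe2l2, and for CCAAT. Printed below are the first 280 bases of each, 5′ to 3′ on the plus strand, with matches to TGACNNNGC or CCAAT on either strand in capitals.
Psma3, chr12:70974373-70974652: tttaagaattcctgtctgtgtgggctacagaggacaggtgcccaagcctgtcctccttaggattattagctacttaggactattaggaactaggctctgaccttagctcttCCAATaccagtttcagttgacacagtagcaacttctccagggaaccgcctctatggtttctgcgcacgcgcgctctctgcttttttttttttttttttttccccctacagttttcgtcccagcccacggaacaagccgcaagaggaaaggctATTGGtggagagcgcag
Psma5, chr3:108256676-108256955: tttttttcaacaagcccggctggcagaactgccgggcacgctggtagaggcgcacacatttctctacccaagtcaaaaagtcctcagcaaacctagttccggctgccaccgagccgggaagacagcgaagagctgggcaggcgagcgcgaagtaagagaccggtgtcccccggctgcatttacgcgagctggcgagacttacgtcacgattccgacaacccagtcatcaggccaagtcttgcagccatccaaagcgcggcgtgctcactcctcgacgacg
Psmc6, chr14:45329574-45329853: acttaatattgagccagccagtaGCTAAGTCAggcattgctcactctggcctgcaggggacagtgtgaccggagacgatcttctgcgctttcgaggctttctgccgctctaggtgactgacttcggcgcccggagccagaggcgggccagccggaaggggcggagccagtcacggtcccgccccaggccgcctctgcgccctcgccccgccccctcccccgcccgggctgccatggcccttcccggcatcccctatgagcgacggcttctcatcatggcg
Psmd14, chr2:61711444-61711723: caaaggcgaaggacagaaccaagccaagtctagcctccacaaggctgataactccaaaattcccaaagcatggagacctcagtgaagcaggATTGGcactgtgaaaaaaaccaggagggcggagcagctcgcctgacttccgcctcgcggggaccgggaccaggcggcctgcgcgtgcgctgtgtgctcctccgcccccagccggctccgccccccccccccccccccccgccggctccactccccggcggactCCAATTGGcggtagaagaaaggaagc
Psma5 has no match of either kind in this window, Psmc6 has 1 match to TGACNNNGC and none to CCAAT, and Psma3 and Psmd14 have 3 matches each to CCAAT, 1 of those of Psma3 after the printed part. The 2 matches at the start site of Psmd14 overlap on opposite strands. Over the members, TGACNNNGC was found in 6 of 42 (14.3%; Psmb5, Psmb6, Psmc6, Psmd12, Psmd9 and Psme4), against 14.0% of all 27025 genes with a promoter. CCAAT was in 15 of 42 (35.7%), against 41.1% of all genes. These shares of the members were close to or below those of all genes. A match is a run of letters and no evidence of binding, and a window without a match says nothing about the factor.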

How the data were processed

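Total RNA of 9 right ventricular libraries was converted with a NEBNext Ultra kit from 1 µg each, per the labels' protocols. The authors deposited FPKM per gene. Per the submitters' processing notes, which state no roles, the tools were GATK 3.7, DESeq2 1.20.0, featureCounts 1.5.0-p3, StringTie 1.3.3b and HISAT2 2.0.5, and the builds GRCm38 and mm10. Strand use and the treatment of multiply mapping reads are not given in the sources used here.

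Here log2(FPKM + 1) was analysed, a scale that understates fold changes of low genes. Genes averaging 0.5 FPKM or more were kept (13477 of 54532). A single limma 3.58.1 fit (R 4.3.3) of 3 group means over the 9 libraries, with a mean-variance trend, gave two-sided p-values, adjusted by Benjamini-Hochberg over all tested genes at 0.05. Multiplied by gene length, 100% of the FPKM values gave a whole number of fragments to within 0.1, and limma's voom was run on those fragments. Library pairs of a group gave chi-square values over genes, divided by the degrees of freedom, of 11.5 to 26.6, except VO 3 with VO 1 (183) and with VO 2 (134). All were above 1, the value for counting noise alone, so all were kept as separate libraries. This does not show that they came from separate mice. Counting intervals were not used, since the fragments may include PCR copies. GC content came from the longest GENCODE M21 transcript (50 of 50 members), and coordinates of 48 of 50 members were the same there as in the table. GC and length corrections removed a loess trend (span 0.3) of each library's deviation from the gene mean. Copies were searched with blastn among GENCODE M21 transcripts. The limma fit of VO against Sham was tested on simulated data, with no filter on low values. The reported fit used a filter, so the simulation did not test the calls given above. Plots used matplotlib 3.10.9 (Python 3.11.15).

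Full statistics were given for members past the test (up to 4 per role and direction), otherwise for the smallest p per role, and always for the catalytic genes, Psme1, Psme2, Psme4, Psmf1 and Pomp. Of every other list, the count and up to 3 genes with the smallest p were eligible. Tap1, which shares exon bases with Psmb9, was named outside this rule. Further members were named after their values were seen, to show where VO 3 or the libraries of a group stood apart. The members, the lists and the tests were chosen with earlier results of these data known. Alternatives were pseudocounts, filters, scalings, library weights, GC and length corrections, a replicate block, only the groups compared, and each library left out in turn. The result of 1 further promoter motif search is not reported here.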

Additional observations from a re-analysis of the deposited data

How the results depend on the processing

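Over 27 settings, Psma3, Psma5, Psmc6 and Psmd14 passed the test in VO against Sham in 13, 13, 11 and 11, and their lowest differences were 0.36, 0.61, 0.013 and 0.33. The number of called genes in VO against Sham, 642 as reported, and that of called members, 4 as reported, were 0 and 0 with no filter on low values, with the GC correction, with the replicate block plus the GC correction, and with only the groups compared. The replicate block alone left 1 gene and 0 members, and it changed no other call of genes or members. Deviations from the group mean in libraries of the same replicate number had correlations between -0.40 and 0.24. Libraries of different number were not set beside them, so whether replicate numbers pair the libraries cannot be told from these values. Without the libraries high in Myl7 (an alternative chosen after seeing the data, as are those named next) 3 genes and 0 members were called. The GC correction without VO 3 gave 15 genes and 0 members, with a member median of 0.091, the length correction 1387 genes and 7 members, and both corrections together 59 genes and 0 members. Leaving out each library in turn gave 0 to 2074 called genes and 0 to 8 called members in VO against Sham, the highest values without VO 3. In CsA against VO that range was 0 to 1 genes, and in CsA against Sham 0 to 3 genes. The GC correction without VO 3 called 1 gene in CsA against VO and moved the member median from -0.27 to 0.023. Without the libraries high in Myl7, 2 genes were called in CsA against Sham. The cause of these changes was not tested, other than that leaving out libraries tests fewer samples and no filter tests more genes. The effect of depth was not tested; of the tested members, Psmc3ip, Psmg3, Psmb8, Psmb9 and Psmg4 had the fewest fragments in their lowest library, 12, 14, 30, 38 and 40.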
